A study of Mus musculus with 6 samples.

Results

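The short H2A variants are a small group of histones made in the testis, and 10 of their genes are described here: H2al1a, H2al1b, H2al1g, H2al1i, H2al1k, H2al1m, H2al1n, H2al2a, H2al3 and H2ap. They were listed by name among 25165 gene symbols, for their role in spermatid chromatin and for their higher level in the libraries titled KO. The comparison between the groups therefore chose them, and their values in it are a description without a test. Total RNA came from testes of C57BL/6 mice aged 8 weeks and was sequenced in 6 libraries: 3 have KO in the title and 3 have WT. The KO is the loss of Teshl, a testis lncRNA (a long RNA without a protein product) that the labels name by its RefSeq transcript NR_038002. In the genotype field the libraries titled KO are wild type and those titled WT are NR_038002-/-, so titles and genotypes contradict each other for all 6 libraries. Libraries were grouped by title, and all differences are titled KO minus titled WT. The labels name no separate control allele, founder line or pool of animals.

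The targeted gene checked the labels. 1700027A15Rik, the gene of NR_038002 on chromosome 1, stood at 0.385 FPKM in titled KO replicate 1, was listed at 0 in replicates 2 and 3, and stood at 1028, 989 and 1081 FPKM in the libraries titled WT (log2 fold change -9.86, limma adjusted p = 2.91e-08). So the titles, and not the genotype field, match the level of the targeted gene. FPKM is the number of fragments per kilobase of transcript and scaled to the mapped fragments of the library, so levels can be compared between genes of different length. Low values were spaced as if each library held between 27200000 and 39300000 fragments. At that depth, 3 fragments on 1 kb would read as 0.0764 to 0.110 FPKM, a floor for counting error only.

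In a nucleosome, H2A pairs with H2B at the edge of the particle, and the end of the H2A chain helps to hold the outer turns of DNA. Many of the short H2A variants lack much of that end, and some form open, less stable nucleosomes. The short H2A variants appear late in spermatogenesis, when spermatids take out most of their histones and load first transition proteins and then protamines. H2A.L.2, the product of H2al2a, pairs with the testis H2B and is needed in mice for transition proteins to load onto DNA.

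All 10 genes had a single exon and a single transcript in the GENCODE M21 annotation (GRCm38). Without the stop codon, 6 of the H2al1 genes had 105 codons, H2al1n had 109, H2al2a 111, H2ap 117 and H2al3 128. The longer variant H2ax had 143. H2al2a lies on chromosome 2 (chr2:17996417-17996958, minus strand), and the other 9 genes lie on the plus strand of the X chromosome. H2al1a (chrX:11299257-11299757), H2al1b (chrX:11302432-11302926), H2al1g (chrX:11318256-11318764) and H2al1i (chrX:11324659-11324976) form a tandem array. H2ap (chrX:9846928-9847508, named Hypm in the annotation) and H2al3 (chrX:9849703-9850255) are next to each other. H2al1k (chrX:9350627-9351136), H2al1m (chrX:9283764-9284298) and H2al1n (chrX:14211148-14211661) stand apart, and H2al1m lies within an intron of Xk on the same strand.

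The H2al1 copies are nearly the same sequence, which limits how their reads can be assigned. Over 21 pairs of the 7 H2al1 genes, coding identity ran from 92.7% to 100%, with a median of 99.0%. H2al1a, H2al1g and H2al1i had identical coding sequences. Among the 6 genes of equal coding length, 6 of 315 coding positions varied, and 4 of these lie in coding bases 151 to 240. That window is shown on the plus strand of GRCm38 for each distinct sequence, because it holds most of the varying coding positions. Annotated transcript bases outside the coding sequence were not compared here. Capitals mark bases that differ from H2al1a. The sequence of H2al1a (chrX:11299471-11299560) is also that of H2al1g (chrX:11318475-11318564) and H2al1i (chrX:11324809-11324898). H2al1b is at chrX:11302639-11302728, H2al1k at chrX:9350846-9350935 and H2al1m at chrX:9284009-9284098.
H2al1a: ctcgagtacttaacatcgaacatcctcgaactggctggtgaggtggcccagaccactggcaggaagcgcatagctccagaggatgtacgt
H2al1b: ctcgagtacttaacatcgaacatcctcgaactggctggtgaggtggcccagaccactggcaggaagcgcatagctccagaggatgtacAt
H2al1k: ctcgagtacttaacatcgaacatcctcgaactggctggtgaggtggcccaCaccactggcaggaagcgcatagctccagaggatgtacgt
H2al1m: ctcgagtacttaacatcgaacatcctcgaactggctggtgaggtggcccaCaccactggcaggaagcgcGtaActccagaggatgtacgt

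Reads within this window cannot be told apart between H2al1a, H2al1g and H2al1i, and only 1 to 3 bases separate H2al1b, H2al1k and H2al1m from them. H2al1c, H2al1d, H2al1f and H2al1h, copies that are not among the members, also have the coding sequence of H2al1a, H2al1g and H2al1i. No source used here says how the authors divided such reads, so single H2al1 values are uncertain and their sum is given beside them. H2al2a was more distant, with 83.5% to 86.2% coding identity to the 7 H2al1 genes. H2al3 shared 50.1% to 56.3% and H2ap 50.1% to 55.8% with the other genes, so near copies do not affect them in the same way.

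**Figure D1:**
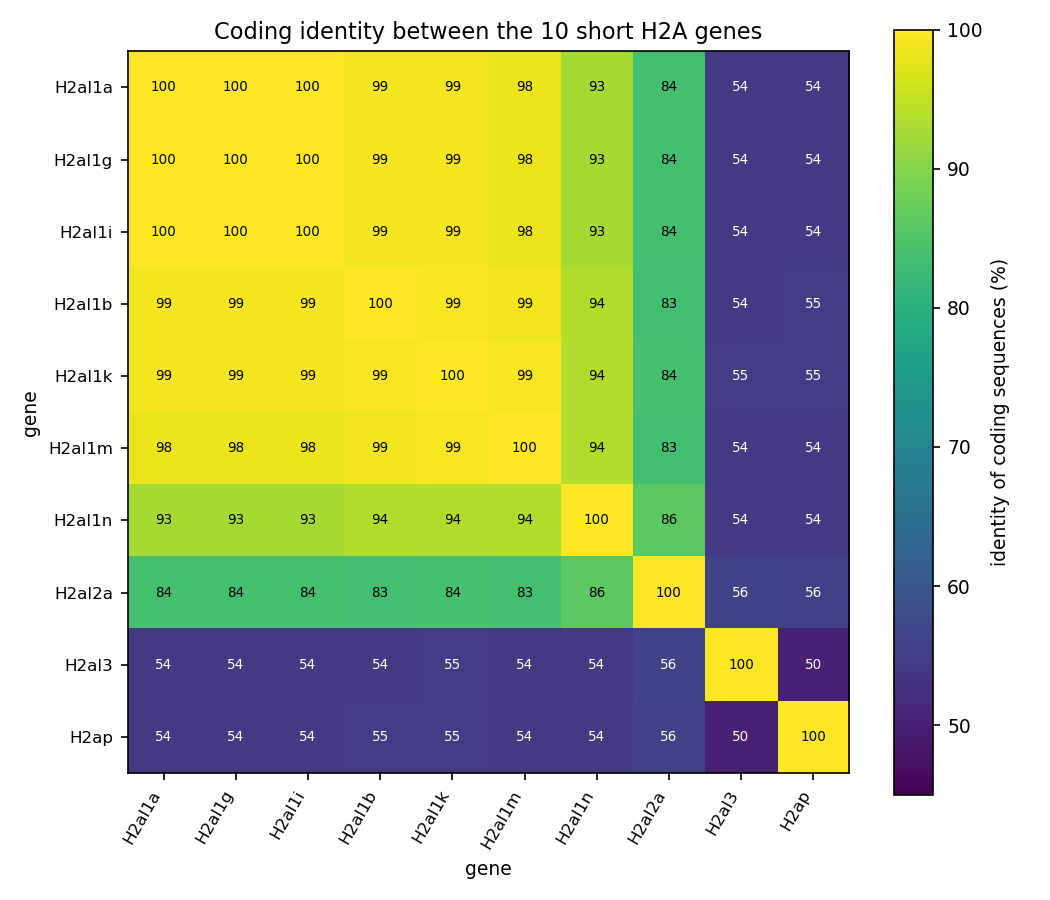
Percent identity of the coding sequences of the 10 short H2A genes, for each pair (colour scale and number, from global alignments). The 7 H2al1 genes form a block at 92.7% to 100%, H2al2a sits at 83.5% to 86.2% to that block, and H2al3 and H2ap lie below 57% to all others.

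The 250 bases before the RefSeq start (GRCm38.p6) were compared as well. The H2al1 genes matched each other at 92.6% to 100% over local alignments of 153 to 249 positions. The shortest of these, at 153 to 193 positions, were those of H2al1i, which also gave the 100% match (with H2al1g). The GENCODE model of H2al1i begins at the start codon, so its window may hold bases that are transcribed in the other copies. The H2al1 genes matched H2al2a at 78.8% to 84.8% over 165 to 250 positions. One such pair is shown, since the X-linked copy was higher in the libraries titled KO and the copy on chromosome 2 was not separated between the groups. H2al1m is at chrX:9283514-9283763 (plus strand) and H2al2a at chr2:17996959-17997208 (minus strand). Capitals mark bases with no identical partner when the windows are aligned over their whole length.
H2al1m: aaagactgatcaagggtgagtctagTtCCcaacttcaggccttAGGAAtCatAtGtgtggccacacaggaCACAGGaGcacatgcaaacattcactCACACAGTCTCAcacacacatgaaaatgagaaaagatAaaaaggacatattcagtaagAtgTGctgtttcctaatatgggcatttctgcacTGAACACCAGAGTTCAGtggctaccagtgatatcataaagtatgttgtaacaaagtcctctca
H2al2a: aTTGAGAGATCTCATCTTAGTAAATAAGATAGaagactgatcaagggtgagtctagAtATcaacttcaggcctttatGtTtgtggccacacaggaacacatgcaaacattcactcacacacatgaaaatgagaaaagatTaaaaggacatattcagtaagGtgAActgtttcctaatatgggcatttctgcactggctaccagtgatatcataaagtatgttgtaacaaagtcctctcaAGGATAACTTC

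Each window had 51 unmatched bases among its 250, and the matched bases included long unbroken runs near the start. In H2al2a most unmatched bases lie in runs toward the ends of the window, past the part shared with H2al1m. So 51 is not a count of base changes. H2al3 and H2ap differed from the others upstream too. H2al3 aligned with the other 9 genes at 61.4% to 69.7% identity over 119 to 220 positions. H2ap aligned with the H2al1 genes and H2al2a at 55.9% to 59.2% over 145 to 251 positions. The identity that unrelated sequences would reach in such gapped local alignments was not measured. The 250 bases were searched on both strands for common promoter motifs, with the limit given above for the window of H2al1i. TATAAA occurred in H2al3 alone of the 10, with its first base at -27 from the start, and in 12.4% of 32851 RefSeq promoter windows of the same length. CCAAT occurred in H2ap alone, at -76 and -31, against 33.8% of all windows. TGACG, one arm of the cAMP response element, also occurred in H2ap alone, at -239, against 17.8%. The full element TGACGTCA (1.55% of windows), which contains TGACG, and the heat shock pairs GAANNTTC (6.69%) and TTCNNGAA (7.17%) occurred in 0 of the 10. The last 100 bases before the H2al3 start (chrX:9849603-9849702, plus strand) and bases -120 to -21 of H2ap (chrX:9846827-9846926, plus strand) are shown with these matches in capitals.
H2al3: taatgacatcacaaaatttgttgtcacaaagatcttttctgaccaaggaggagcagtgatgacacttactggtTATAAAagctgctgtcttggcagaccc
H2ap: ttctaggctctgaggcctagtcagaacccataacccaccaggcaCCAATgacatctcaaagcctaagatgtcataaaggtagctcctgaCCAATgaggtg

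All 10 genes were transcribed in the testis of both groups, and all passed the filter of a mean of at least 1 FPKM in a group. In the libraries titled WT the order of the mean levels was H2al2a, H2ap, H2al3, H2al1g, H2al1m, H2al1n, H2al1k, H2al1a, H2al1b and H2al1i. H2al2a ranked 195 among all symbols and H2al1i ranked 5349. Neighbours in that order that overlapped between libraries were H2al3 with H2al1g, H2al1m with H2al1n, H2al1n with H2al1k, H2al1k with H2al1a, and H2al1b with H2al1i. In the libraries titled KO, H2al1g stood before H2al3, with overlapping libraries, and the other genes kept their places.

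In 9 of the 10 genes every library titled KO lay above every library titled WT, and in H2al2a the groups overlapped. Of all 12952 tested genes 5.92% were separated in this direction, and of the 527 tested genes of the X chromosome 33.4%. The 10 genes were chosen on this contrast, so nothing is read from that count. In whole testis, a change in the number of cells of a type and a change in RNA per cell cannot be told apart. This limit holds for each value below. The 7 H2al1 genes are near copies whose reads may be shared, so they cannot be taken as 7 separate measurements.

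**Figure D2:**
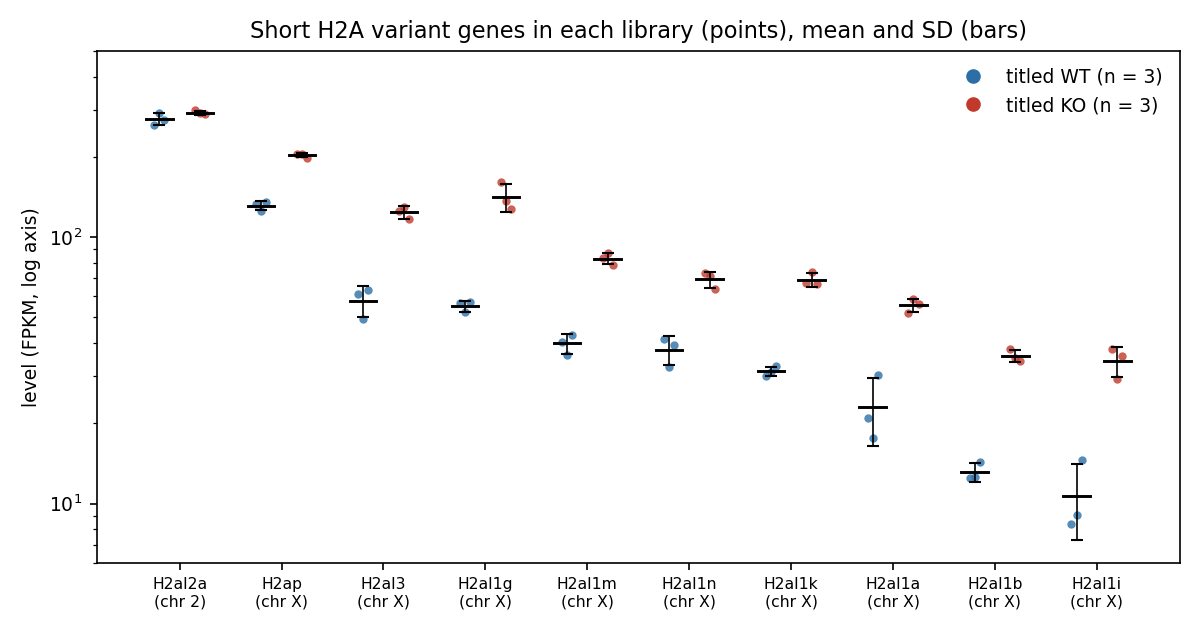
Level of each short H2A gene in FPKM (log axis) in the 3 libraries titled WT (blue) and the 3 titled KO (red); points are libraries, bars the mean and the SD. The 9 X-linked genes stand higher in each library titled KO than in any titled WT, while H2al2a on chromosome 2 overlaps at 264 to 299 FPKM.

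H2al2a encodes H2A.L.2 and was the most abundant of the 10 per length. It stood at 299, 291 and 289 FPKM in titled KO replicates 1, 2 and 3 and at 264, 293 and 276 FPKM in titled WT replicates 1, 2 and 3. Titled WT replicate 2 lay above titled KO replicates 2 and 3. The means were 293 ± 4.94 and 278 ± 14.5 FPKM (SD, n = 3 each), a ratio of 1.05, and the log2(FPKM + 1) difference was 0.08 (SE 0.05).

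H2ap encodes H2A.P, a short H2A that also goes by huntingtin-interacting protein M. It stood at 205, 205 and 198 FPKM in the libraries titled KO, against 133, 126 and 135 FPKM in those titled WT. The groups were well apart, and both varied little, with a coefficient of variation of 2.01% and 3.77%. The means of 203 ± 4.07 and 131 ± 4.93 FPKM (SD, n = 3 each) gave a ratio of 1.55, the smallest among the 9 separated genes. The log2(FPKM + 1) difference was 0.63 (SE 0.05).

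H2al3 encodes H2A.L.3, the member with the longest reading frame of the 10. Its levels were 125, 130 and 117 FPKM in the libraries titled KO and 61.1, 49.1 and 63.2 FPKM in those titled WT, where replicate 2 was the lowest. The means were 124 ± 6.58 and 57.8 ± 7.59 FPKM (SD, n = 3 each), a ratio of 2.14 and a log2(FPKM + 1) difference of 1.09 (SE 0.09). H2ap lies beside it, within 3 kb, and had the smaller ratio.

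The H2al1 genes encode the H2A.L.1 proteins, found with H2A.L.2 on the heterochromatin around centromeres in condensing spermatids. Summed over the 7 genes, the level was 512, 492 and 463 FPKM in the libraries titled KO and 210, 191 and 231 FPKM in those titled WT. The sums did not overlap, and the means of 489 ± 24.6 and 211 ± 20.1 FPKM (SD, n = 3 each) gave a ratio of 2.32. With all 14 H2al1 symbols of the tables the sums were 523, 537 and 514 against 213, 194 and 236 FPKM, a ratio of 2.45.

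H2al1g was the most abundant H2al1 gene, at 161, 136 and 128 FPKM in the libraries titled KO and 56.4, 52.2 and 56.9 FPKM in those titled WT. Titled KO replicate 1 stood highest, and the groups were far apart. The means were 142 ± 17.1 and 55.2 ± 2.63 FPKM (SD, n = 3 each), a ratio of 2.57 and a log2(FPKM + 1) difference of 1.34 (SE 0.08). The symbol had 4 entries in each table, which were summed. Its largest entry alone gave 113 ± 14.1 and 43.6 ± 1.41 FPKM (ratio 2.60) and the next 28.1 ± 4.88 and 11.6 ± 2.0 FPKM (ratio 2.43; SD, n = 3 each), so both main entries showed a like ratio.

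H2al1a and H2al1i share their coding sequence with H2al1g and varied more among the libraries titled WT. H2al1a stood at 52.0, 58.4 and 55.9 FPKM in the libraries titled KO, against 21.0, 17.7 and 30.4 FPKM in those titled WT (means 55.4 ± 3.22 and 23.0 ± 6.59, SD, n = 3 each; ratio 2.41). H2al1i stood at 37.9, 29.4 and 35.7 FPKM and at 8.42, 9.05 and 14.6 FPKM (means 34.3 ± 4.39 and 10.7 ± 3.39, SD, n = 3 each; ratio 3.21). In both genes titled WT replicate 3 was the highest of its group, and the coefficients of variation there were 28.6% and 31.8%, against 3.77% to 13.1% in the other 8 genes. The GENCODE model of H2al1i holds coding bases alone, 318 with the stop codon, and is shorter than the models of the other H2al1 members. The annotation behind the deposited values is not given, so the length used for its level is not known. The log2(FPKM + 1) differences were 1.27 (SE 0.19) for H2al1a and 1.63 (SE 0.21) for H2al1i.

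H2al1b, the second gene of the array, stood at 37.9, 35.3 and 34.4 FPKM in the libraries titled KO and 12.5, 12.5 and 14.3 FPKM in those titled WT (means 35.8 ± 1.82 and 13.1 ± 1.03, SD, n = 3 each; ratio 2.73). Its spread was small in both groups, and its log2(FPKM + 1) difference was 1.38 (SE 0.07).

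Among the 7 H2al1 members, the 3 outside the array had lower ratios than the 4 within it. H2al1k stood at 67.0, 74.2 and 66.6 FPKM in the libraries titled KO and 30.2, 31.1 and 32.7 FPKM in those titled WT (means 69.3 ± 4.27 and 31.3 ± 1.30, SD, n = 3 each; ratio 2.21). H2al1m stood at 83.3, 87.0 and 78.8 FPKM against 40.6, 36.2 and 42.9 FPKM (means 83.1 ± 4.10 and 39.9 ± 3.39, SD, n = 3 each; ratio 2.08). None of the libraries overlapped between the groups in either gene. H2al1n stood at 73.0, 71.1 and 63.9 FPKM against 41.3, 32.5 and 39.5 FPKM (means 69.3 ± 4.83 and 37.8 ± 4.63, SD, n = 3 each; ratio 1.84). H2al1n is also the most diverged of the 7 in its coding sequence, and had the lowest ratio of the 7. The log2(FPKM + 1) differences were 1.12 (SE 0.06) for H2al1k, 1.04 (SE 0.07) for H2al1m and 0.86 (SE 0.09) for H2al1n. That the members outside the array had the lower ratios was seen in the values and was not tested. It did not extend to copies that are not members: H2al1o, outside the array, had a ratio of 2.94 and H2al1e, within it, 2.65, both at low levels.

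Over the 10 genes the median log2(FPKM + 1) difference was 1.11, with a range of 0.08 to 1.63. The median over all 12952 tested genes was -0.04. The summed level of the 10 genes was 1141, 1117 and 1067 FPKM in the libraries titled KO and 669, 659 and 705 FPKM in those titled WT, with means of 1109 ± 37.6 and 678 ± 24.4 FPKM (SD, n = 3 each), a ratio of 1.64. The 9 X-linked genes summed to 842, 827 and 778 FPKM against 404, 366 and 430 FPKM, a ratio of 2.04. Nearly all of the difference of 431 FPKM in the sum of 10 lay in the X-linked genes, which differed by 416 FPKM.

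The make-up of the sum differed accordingly. H2al2a made up 39.1% to 44.5% of the 10 genes' FPKM in the libraries titled WT and 26.0% to 27.1% in those titled KO. H2ap held 19.0% to 19.8% and 18.0% to 18.6%, so its share was lower in the libraries titled KO although its level was higher. The share of H2al3 was 7.45% to 9.15% in the libraries titled WT and 10.9% to 11.6% in those titled KO, and H2al1g went from 7.91% to 8.44% in the former to 12.0% to 14.1% in the latter. H2al1n was the one gene whose shares overlapped, at 4.93% to 6.18% and 5.98% to 6.40%. Within the 7 H2al1 genes alone, H2al1n held 17.0% to 19.6% in the libraries titled WT and 13.8% to 14.5% in those titled KO.

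**Figure D3:**
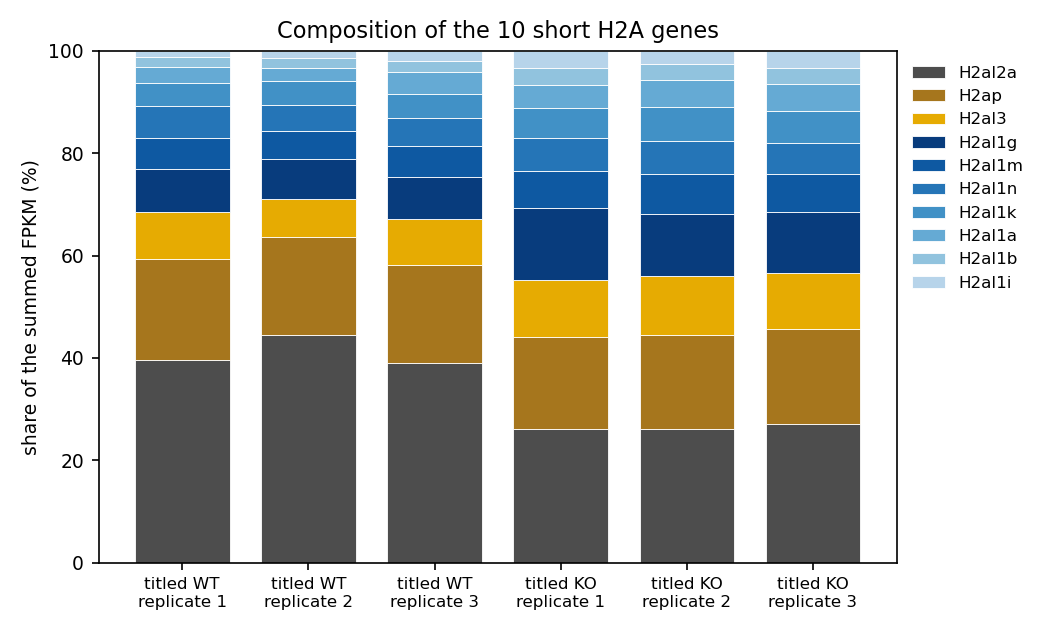
Share of each gene in the summed FPKM of the 10 short H2A genes, in percent, for each library (stacked bars to 100%). H2al2a (dark grey) takes 39.1% to 44.5% in the libraries titled WT and 26.0% to 27.1% in those titled KO, and the H2al1 genes (blues) take a larger part in the latter than in the former.

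The tables hold 9 further symbols of the H2al families, copies that were not among the 10. H2al1e, in the same array, stood at 3.24, 3.94 and 2.13 FPKM in the libraries titled KO, against 0.999, 1.17 and 1.34 FPKM in those titled WT, and was called higher (0.90 on the log2 scale with an SE of 0.16, limma adjusted p = 0.0480). That call is marginal: the adjusted p was 0.0503 to 0.178 under 9 of 14 alternatives, among them leaving out titled KO replicate 1 (0.126), titled KO replicate 2 (0.0715), titled WT replicate 1 (0.178), titled WT replicate 2 (0.170) and titled WT replicate 3 (0.0748). The coding sequence of H2al1e is 99.4% identical to that of H2al1a, H2al1g and H2al1i, and 99.7% to that of H2al1b and H2al1k. Those members are more abundant and were chosen on this contrast. Reads of theirs assigned to H2al1e cannot be told apart from its own level, and this was not tested. H2al1o, on the minus strand of the X chromosome, stood at 7.56, 6.68 and 4.92 FPKM against 1.56, 1.22 and 3.73 FPKM and was not called (1.28, SE 0.33, limma adjusted p = 0.228), but it passed without titled WT replicate 3, the highest of its group (1.61, adjusted p = 0.00243).

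H2al1f has the same coding sequence as H2al1i. It was listed at 0 in titled KO replicate 1 and in all 3 libraries titled WT, and at 34.2 and 43.4 FPKM in titled KO replicates 2 and 3. It was not called (limma adjusted p = 0.430). It passed without titled KO replicate 1 (adjusted p = 8.7e-09), but that leaves out the one library of its group at 0 and the gene entered the test only through the group where it is high, so nothing is read from that p. H2al1f and H2al1i together came to 37.9, 63.6 and 79.0 FPKM in the libraries titled KO and to 8.42, 9.05 and 14.6 FPKM in those titled WT, so the sum of the pair was uneven among the libraries titled KO as well. H2al2b and H2al2c, the Y-linked relatives of H2al2a, have identical coding sequences and equal values in 5 of 6 libraries. H2al2b stood at 0.502, 1.41 and 1.78 FPKM in the libraries titled KO and 0.536, 0.117 and 0.358 FPKM in those titled WT, and its groups overlapped. Neither was called (limma adjusted p = 0.286 for H2al2b and 0.293 for H2al2c), and both passed without titled KO replicate 1 (0.97, adjusted p = 0.0165, and 1.03, adjusted p = 0.00802). Those p-values are not read as support either, since the library left out was the lowest of its group and both genes entered the test only through the libraries titled KO. H2al1c and H2al1d stayed below 0.1 FPKM, and H2al1h and H2al1j were listed at 0 in all libraries. H2al1c, H2al1d and H2al1h have the same coding sequence as H2al1a, H2al1g and H2al1i. Their low values therefore cannot be told apart from an uneven division of shared reads, which was not tested.

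H2A.B is another short H2A of the testis, linked with active genes. H2ab3, its most abundant gene here, stood at 6.70, 8.95 and 7.40 FPKM in the libraries titled KO and 6.06, 5.91 and 5.30 FPKM in those titled WT. It was not called (0.36, SE 0.10, limma adjusted p = 0.151), nor was H2ab1 (0.24, SE 0.31, adjusted p = 0.727), and H2ab2 was listed at 0.

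The wider list of other histone variants, with the copies and H2A.B genes above, held 30 symbols in the tables, of which 24 were tested. H2al1e was the 1 called higher and 0 were called lower, where 0.788% of all tested genes were called higher and 0.363% lower. Without adjustment, at p under 0.05, 6 were higher and 2 were lower, where 5.38% of all tested genes were higher and 8.89% lower, and the list's median difference was 0.01. Of the 24, H2al1f, H2al2b, H2al2c and H2ab1 passed the filter only through the libraries titled KO and H2bfm only through those titled WT, so these counts are given as a description. The call of H2al1e may also rest on reads shared with the members. H2bl1, a testis H2B variant at 357 ± 22.0 and 307 ± 17.8 FPKM (SD, n = 3 each), was not called (0.22, SE 0.06, limma adjusted p = 0.170). Macroh2a1, an H2A with a large added domain found on silent chromatin, was at 31.6 ± 1.62 and 35.8 ± 0.0248 FPKM (SD, n = 3 each) and was not called (-0.18, SE 0.06, limma adjusted p = 0.211).

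Transition proteins and protamines follow the short H2A variants on spermatid DNA. None of the 5 genes was called by limma, while 4 were higher at an unadjusted p under 0.05 (5.38% of all tested genes), and the median difference was 0.19. Tnp1 was at 5397 ± 222 and 5110 ± 460 FPKM (SD, n = 3 each; difference 0.08, limma adjusted p = 0.554), with overlapping groups. Tnp2 stood at 6310, 6932 and 6601 FPKM in the libraries titled KO and 4996, 4791 and 5834 FPKM in those titled WT (0.35, SE 0.07, limma adjusted p = 0.0735). Prm1 stood at 9823, 10526 and 10305 FPKM against 8645, 8058 and 9119 FPKM (0.25, SE 0.05, limma adjusted p = 0.0682). The groups of Tnp2, Prm1 and Prm2 did not overlap, as in 5.92% of all tested genes in this direction. Prm2 differed by 0.19 (limma adjusted p = 0.106) and Prm3 by 0.17 (limma adjusted p = 0.264). Without titled WT replicate 3, the highest of its group in all 5 genes, Tnp2 (0.43, adjusted p = 0.000987), Prm1 (0.29, adjusted p = 0.0115) and Prm2 (0.23, adjusted p = 0.0267) passed. Set against the RNA of these genes, the 10 short H2A genes together came to 19.1% to 22.1% of Tnp1 in the libraries titled KO. In those titled WT they came to 12.6% to 14.0%. Against Tnp2 they came to 16.1% to 18.1% and 12.1% to 13.8%, a smaller contrast. Against Prm1 they came to 10.4% to 11.6% and 7.73% to 8.18%, and against Prm2 to 12.3% to 13.1% and 8.66% to 8.97%.

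Genes that acetylate, mark or remove histones in spermatids were looked at from a list with 33 symbols in the tables, of which 32 were tested. None was called by limma; without adjustment, at p under 0.05, 0 were higher and 2 were lower, where 5.38% and 8.89% of all tested genes were. The median difference was -0.04, the same as over all tested genes to 2 decimals. The 2 were Nutm1, a partner of the acetyltransferase p300 (11.1 ± 0.522 and 12.8 ± 1.31 FPKM, SD, n = 3 each; -0.19, limma adjusted p = 0.318), and Parp1, a DNA damage enzyme (21.4 ± 1.94 and 24.9 ± 2.62 FPKM, SD, n = 3 each; -0.21, limma adjusted p = 0.322). Nap1l4, a histone chaperone, differed by -0.11 (limma adjusted p = 0.401) and Top2b, a topoisomerase, by -0.14 (limma adjusted p = 0.413).

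The flanking genes were examined next: on either side of each locus the closest tested gene that is no short H2A or H2A.B symbol was taken, 10 genes in all, 8 of them X-linked. Of these, 3 were called higher and 0 lower, where 14.2% of the tested X-linked genes were called higher; 5 were higher at an unadjusted p under 0.05, against 32.1% of the tested X-linked genes, and their median difference was 0.11. Xk, which spans H2al1m and encodes a membrane protein, stood at 3.40, 3.31 and 3.28 FPKM in the libraries titled KO and 2.24, 2.29 and 2.21 FPKM in those titled WT (0.42, SE 0.06, limma adjusted p = 0.0136). 4930402K13Rik, 177421 bp from H2al1m, stood at 6.12, 8.04 and 7.15 FPKM against 4.18, 3.98 and 5.09 FPKM (0.58, SE 0.11, limma adjusted p = 0.0396). Ppp1r2-ps9, 898928 bp from H2al1n, stood at 34.9, 39.3 and 35.0 FPKM against 25.1, 22.2 and 25.9 FPKM (0.56, SE 0.07, limma adjusted p = 0.00721). All 3 neighbours had smaller log2 differences than the short H2A gene beside them. The call of Xk was lost without titled KO replicate 2 (adjusted p = 0.0601), titled KO replicate 3 (0.0606) or titled WT replicate 1 (0.0613). That of 4930402K13Rik was lost without titled KO replicate 2 (adjusted p = 0.131), titled KO replicate 3 (0.157), titled WT replicate 1 (0.173) or titled WT replicate 2 (0.126), and also with no filter (0.109) or no robust estimation (0.0626).

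H2ap and H2al3 lie between Dynlt3, a dynein light chain gene (0.24, limma adjusted p = 0.248), and Rpgr, a gene of the ciliary base (0.22, limma adjusted p = 0.138), and neither was called. The array of H2al1a, H2al1b, H2al1g and H2al1i lies between Mid1ip1 (-0.11, limma adjusted p = 0.473), 579554 bp from H2al1a, and Atp6ap2 (-0.01, limma adjusted p = 0.968), 1262782 bp from H2al1i. The sign of Atp6ap2 changed with the scaling of the libraries, to 0.02 with upper-quartile or median-of-ratios scaling. Ddx3x, an RNA helicase gene 917159 bp from H2al1n, differed by -0.06 (limma adjusted p = 0.605). On either side of H2al2a on chromosome 2, Mllt10, 58201 bp away, differed by -0.05 (limma adjusted p = 0.647) and Arl5b, 2913960 bp away, by -0.15 (limma adjusted p = 0.387).

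**Figure D4:**
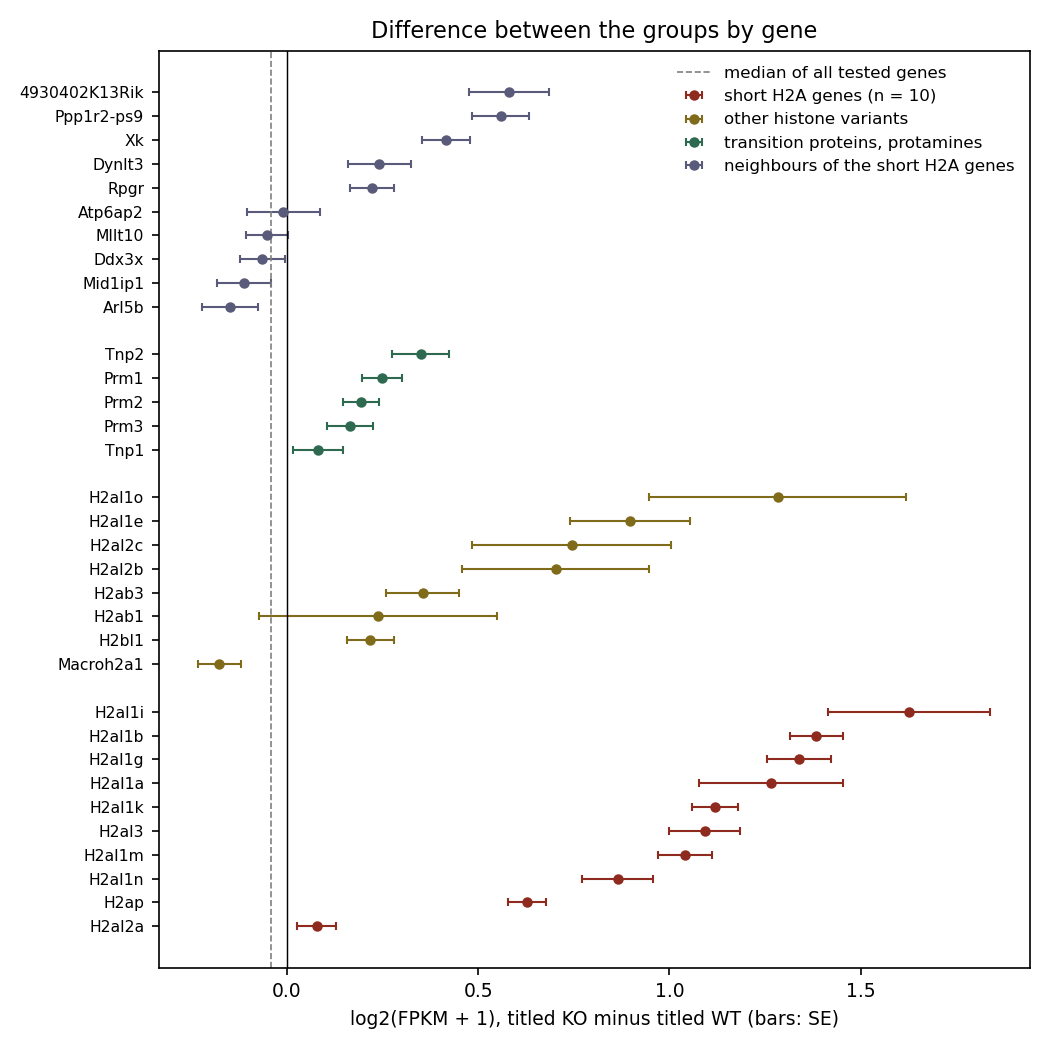
Difference in log2(FPKM + 1), titled KO minus titled WT, with its SE, for the 10 short H2A genes, 8 other histone variants, the transition proteins and protamines, and the neighbours of the short H2A genes; the dashed line is the median of all tested genes (-0.04). The 9 X-linked short H2A genes lie between 0.63 and 1.63 and H2al2a at 0.08; H2al1f (3.54, SE 1.74) is left out because it is listed at 0 in 4 libraries.

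Across the 6 libraries each short H2A gene was set against the mean log2(FPKM + 1) of the other 9. Pearson's r was 0.969 to 0.997 for the 9 X-linked genes and 0.597 for H2al2a. These values share libraries, depth and the group contrast that chose the genes, and are given as a description. Among all other tested genes the 8 most like the mean of the 10 had r from 0.990 to 0.998: Arhgef6, 1700003E24Rik, Actl11, 1700010D01Rik, Fscb, LOC101055749, Spem2 and Gm6812. Of these, 4 are X-linked (Arhgef6, 1700003E24Rik, 1700010D01Rik and Gm6812), and LOC101055749 had no position in the tables used. 1700003E24Rik stood at 844, 851 and 746 FPKM in the libraries titled KO and 349, 304 and 387 FPKM in those titled WT. Arhgef6, a guanine nucleotide exchange factor, was lower in level at 7.04, 6.78 and 6.73 FPKM against 4.22, 3.99 and 4.40 FPKM. The other 3 had a known autosomal position: Actl11 on chromosome 9, an actin-like gene, at 96.5 ± 0.699 and 85.0 ± 1.11 FPKM; Fscb on chromosome 12, a protein of the sperm fibrous sheath, at 101 ± 1.28 and 84.1 ± 2.95 FPKM; and Spem2 on chromosome 11 at 226 ± 2.65 and 175 ± 4.08 FPKM (SD, n = 3 each). Of the 8 genes, which were picked for this pattern, all but Actl11 (limma adjusted p = 0.121) were called higher. Fscb (limma adjusted p = 0.0445) lost its call without titled KO replicate 1 (0.104), titled KO replicate 2 (0.155), titled KO replicate 3 (0.156), titled WT replicate 1 (0.135) or titled WT replicate 2 (0.104).

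The labelled tissue was checked by markers of testis cells. The 8 markers of elongating spermatids, the stage of the short H2A variants, summed to 7372 to 7762 FPKM in the libraries titled KO and 7300 to 7578 FPKM in those titled WT. Those of round spermatids summed to 596 to 734 and 572 to 672 FPKM, so both sums overlapped. The summed markers of spermatocytes, Sertoli cells, Leydig cells, macrophages and blood also overlapped between the groups, and Hbb-bs was listed at 0 in all libraries. Among single spermatid markers, the groups did not overlap in Akap4, Spem1, Izumo1 and Catsper3, higher in the libraries titled KO, and in Tssk6, lower there. Of all tested genes 5.92% were separated in the higher direction. The 6 markers of spermatogonia summed to 36.1 to 41.6 FPKM in the libraries titled KO and to 43.3 to 50.9 FPKM in those titled WT, without overlap. Most of that gap lay in Uchl1 (21.0 to 24.5 and 26.6 to 32.9 FPKM), and without it the other 5 overlapped at 14.97 to 17.1 and 16.8 to 18.0 FPKM, a sum taken after the data were seen; the part of cell make-up in the short H2A values was not tested. No gene of the 8 marker lists was called by limma. Pairs of libraries correlated across genes (log2 scale) at 0.991 to 0.993 within the group titled KO, at 0.989 to 0.992 within WT, and at 0.981 to 0.991 across groups.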

How the data were processed

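Total RNA libraries were made with a directional kit, per the labels' protocols. HISAT2 and the build mm10 are named without versions, per the submitters' processing notes. The quantifier, annotation, strand setting and treatment of reads that match several copies are not given in any source used here. The deposited values were taken as FPKM computed by the authors; this unit was inferred from the values, which are not whole numbers and whose low values step with transcript length (80 to 96 genes per library at 1 step, 10 to 20 at 1.5 steps, within 0.02 on the log10 scale). No count test was possible.

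Each table had 25910 rows for 25165 symbols; 333 symbols stood on 1078 rows, which were summed per symbol. The 12952 genes whose mean reached 1 FPKM in either group were tested two-sided on log2(FPKM + 1), using limma 3.58.1 under R 4.3.3 (with trend and robust options), with Benjamini-Hochberg adjustment at 0.05. The pseudocount makes differences of low genes too small. The labels do not tie libraries to separate animals, so each p-value reflects spread among libraries, which may be technical. The fit was tested on simulated data.

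The members and gene lists were chosen with earlier results of these data known. The genes named were the 10 members, the target, the transition proteins and protamines, the short H2A and H2A.B symbols, called genes and up to 4 others of smallest p in each other list, the neighbours, and the 8 genes most like the members. Positions and coding sequences came from GENCODE M21, and upstream windows from RefSeq (GRCm38.p6), where all 10 members matched; alignments used Biopython 1.88. Alternatives were another pseudocount (0.1), no filter, a filter of 5 FPKM, 3 scalings, non-robust estimation, a block for the replicate number, each library left out and the largest entry per symbol, which for counts of calls was added after the data were seen.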

Additional observations from a re-analysis of the deposited data

How the results depend on the processing

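The 10 short H2A genes kept the sign of their difference in all 110 alternative values, each within 1 SD of the value reported. This is a description, since the genes were chosen on this contrast and all values rest on the same libraries. In the 9 genes whose groups did not overlap, leaving out 1 library could not change the sign. The summed ratio of all 10 genes ran from 1.61 to 1.69, and that of the 7 H2al1 genes from 2.21 to 2.43. Over all tested genes 102 were called higher and 47 lower. Leaving out 1 library gave 49 to 184 higher (184 when titled WT replicate 3 was left out, 49 when titled KO replicate 2 was) and 23 to 49 lower; no filter gave 56 higher, and median-of-ratios scaling 28 lower. Of all calls 68.5% were higher, against 78.6% with upper-quartile scaling and 79.0% without titled WT replicate 3. The other histone variants had 0 called higher with no filter, a filter of 5 FPKM, median-of-ratios scaling or no robust estimation, and 0 to 3 with 1 library left out (3 without titled KO replicate 1: H2al1f, H2al2b and H2al2c). Transition proteins and protamines had 2 called higher with upper-quartile scaling, 3 with equal library totals and 0 to 3 with 1 library left out. Neighbours called higher numbered 1 to 3 with 1 library left out. The difference of Atp6ap2 turned to 0.0151 with upper-quartile and 0.0249 with median-of-ratios scaling, and ran from -0.0928 to 0.0923 with 1 library left out. 4930402K13Rik lost its call under 7 alternatives (adjusted p = 0.0626 to 0.173), and Fscb under 9 alternatives (adjusted p = 0.0503 to 0.190). The cause of these changes was not tested.

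The replicate numbers did not pair the libraries: deviations of same-numbered libraries correlated at 0.06, -0.13 and 0.06. With the number as a block, 32 genes were called higher and 18 lower, 0 of the other histone variants, 0 of the transition proteins and protamines and 0 of the neighbours were called, and Spem2 lost its call (adjusted p = 0.0688). The depth behind the values was inferred from their spacing, and reads shared by near copies limit what any single H2al1 value can show.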
